A study of Mus musculus with 33 samples.

Results

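Morphine was compared with saline in the nucleus accumbens, a ventral striatal region, of mice that drank water and so kept a normal microbiome. The comparison rests on 11 of the 33 libraries of the series, which were chosen by the drink and the injection in their titles. They are 5 H2O morphine libraries (replicates 2, 3, 4, 5 and 6) and 6 H2O saline libraries (replicates 3, 4, 5, 6, 8 and 9). All were conventionally raised C57BL/6J mice aged 7 to 9 weeks from a commercial supplier, given plain water from 2 weeks before the injections. Morphine sulfate in saline was injected at 20 mg/kg per day for 7 days, and the saline mice received saline alone. For comparison of responses, 11 Abx libraries (5 morphine, 6 saline) came from such mice drinking vancomycin, bacitracin, neomycin and pimaricin. The 11 GF libraries (5 morphine, 6 saline) came from germ-free C57BL/6J mice bred in isolators, for which no age in weeks was recorded here. Cages were assigned to a drink, the labels do not tie a mouse to a cage, and the sex of the mice is not given in the sources used here. Each title gives a drink or state, an injection and a replicate number, and a library is taken here as 1 mouse. Polyadenylated RNA of the bulk tissue was sequenced.

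Morphine acts mainly on the mu opioid receptor, which couples to inhibitory G proteins, lowers cAMP and opens potassium channels. The nucleus accumbens is built of GABAergic medium spiny neurons with D1 or D2 dopamine receptors, which make the opioid peptides dynorphin and enkephalin, and it receives dopamine from the midbrain and glutamate from cortex, hippocampus, thalamus and amygdala. Opioids raise dopamine in this region, and it is studied for opioid reward and dependence.

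Reads counted to genes were 9.49 to 15.33 M in morphine and 9.68 to 12.3 M in saline libraries (exact permutation test over 462 splits, two-sided, p = 0.171, smallest possible 0.00433). Spiny neuron markers were abundant: Ppp1r1b (DARPP-32) stood at 706 to 1113 CPM (counts per 1 M of the scaled library) in morphine and 1021 to 1463 CPM in saline libraries. The pituitary hormone gene Gh reached at most 0.372 CPM in morphine and 2.32 CPM in saline libraries. Slc17a7, the vesicular glutamate transporter of cortical-type neurons, stood at 6.92, 123, 992, 69.3 and 3.49 CPM in morphine replicates 2 to 6 and at 8.41 to 592 CPM in saline libraries. Morphine replicate 4 held the highest level of this marker among the 11, and results were also computed without it. The share of tallied reads assigned to no feature averaged 10.3% ± 0.508 in morphine and 9.55% ± 0.380 in saline libraries (SD, exact permutation test, p = 0.0303, adjusted over 5 library measures p = 0.0758). The share with several alignments averaged 10.2% ± 0.243 in morphine and 10.8% ± 0.565 in saline libraries (p = 0.0173, adjusted p = 0.0758, same exact permutation test). The part of these shares in the results was not tested.

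Of 14161 genes tested, 987 (6.97%) passed an adjusted p of 0.05 in edgeR's quasi-likelihood test, 644 higher (4.55%) and 343 lower (2.42%) in morphine mice. Most changes were small. The median absolute log2 fold change of the 987 genes was 0.27, 898 changed less than 1.5-fold, and 14 changed over 2-fold (11 higher, 3 lower). Morphine and saline libraries did not overlap for 673 of the 987, against 848 (5.99%) of all genes tested, 498 of them higher (3.52%) and 350 lower (2.47%). Leaving out 1 library gave 460 genes without morphine replicate 2, 563 without morphine replicate 6, 588, 636, 606 and 652 without saline replicates 3, 4, 8 and 9, and 1200 without morphine replicate 4. Of 118 called genes that the rule for naming genes chose, 73 kept the call without each library in turn. Shank2 lost it in all 11 of these fits, Gabrg3, Gcnt1 and Gfra1 in 10, and Casq2, Cplx2, Egfr, Irs4, Hist1h2bc, Kcng3 and Trf in 9, and Akap11, Alas2, Hspa4l, Kcnn3 and Mrps9 in 8. In a fit of all 33 libraries, which takes its spread also from the Abx and GF libraries, 0 genes passed (2222 at an unadjusted p under 0.05). Its fold changes rest on the same 11 H2O libraries, so the kept sign of all 987 is not a separate test. With offsets for transcript length and GC content, 134 genes were called, 50 higher and 84 lower, and 82 of them were among the 987 with the same direction.

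**Figure D1:**
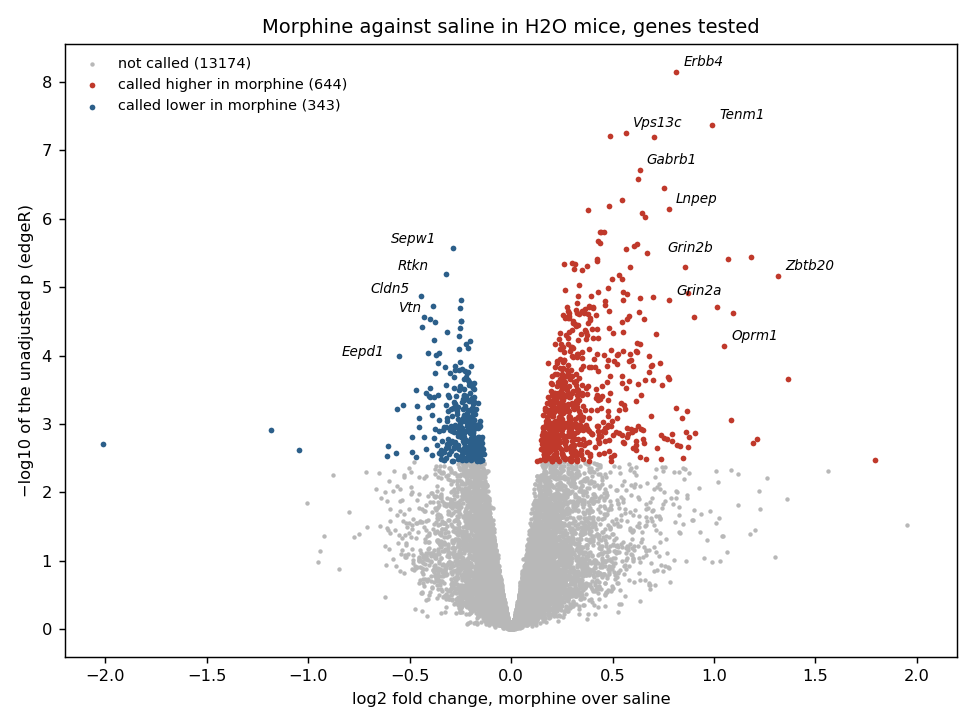
Each point is 1 of the 14161 genes tested, with the log2 fold change of H2O morphine over H2O saline on the x axis and the −log10 of the unadjusted edgeR p on the y axis. Red points (644) were called higher and blue points (343) lower at an adjusted p of 0.05. Erbb4 stood highest on the y axis with a log2 fold change of 0.81.

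The mu opioid receptor gene Oprm1 was the single opioid gene that passed the test: of 8 receptor and peptide genes tested, 1 was called higher and 0 lower, with a median log2 fold change of 0.03 (0.01 over all genes tested). Oprm1 had 7.97, 8.34, 4.45, 8.43 and 8.89 CPM in morphine replicates 2 to 6, against a lowest, median and highest value of 2.81, 3.46 and 4.75 CPM in saline libraries. The groups overlapped through morphine replicate 4 alone, which lay below the highest saline library, while the other 4 lay above all saline libraries. The log2 fold change was 1.05 ± 0.19 (edgeR adjusted p = 0.00743). It kept its call when each of the 11 libraries was left out, and was 1.06 with the length and GC offsets (adjusted p = 0.0249).

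The other opioid genes did not pass. Oprl1, the nociceptin receptor gene, had 77.5, 64.2, 63.6, 54.9 and 66.7 CPM in morphine and 43.0 to 62.3 CPM in saline libraries (log2 fold change 0.29 ± 0.10, edgeR adjusted p = 0.0887), and 4 of 5 morphine libraries lay above every saline library. Pnoc, which codes for the nociceptin precursor, had 3.61 to 11.2 CPM in morphine and 2.12 to 5.71 CPM in saline libraries (0.80 ± 0.29, adjusted p = 0.110). The delta receptor gene Oprd1 (0.08 ± 0.13) and the kappa receptor gene Oprk1 (-0.02 ± 0.10) had adjusted p = 0.755 and 0.938. Penk, the enkephalin precursor gene, had 1263, 1266, 843, 1364 and 1304 CPM in morphine and 1236 to 1621 CPM in saline libraries, with morphine replicate 4 the lowest of all (-0.25 ± 0.11, adjusted p = 0.181). Pdyn, the dynorphin precursor gene, had 229.5 to 445 CPM in morphine and 333 to 446 CPM in saline libraries (adjusted p = 0.928).

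Among 37 G-protein, arrestin and regulator genes, 1 was called higher and 2 lower (median log2 fold change -0.02). Gnaq, the Gq alpha subunit gene, rose by 0.18, Gnb2, a G-protein beta subunit gene, fell by 0.24, and Rgs4, whose protein shortens Gi and Gq signals, fell by 0.41 on the log2 scale (edgeR adjusted p = 0.0211, 0.0245 and 0.0206). Leaving out 1 library in turn ended the call of Rgs4 in 1, of Gnaq in 2 and of Gnb2 in 3 of 11 fits. The list held 0 calls without morphine replicate 2 and 5 without morphine replicate 5. With the length and GC offsets Rgs4 stayed called (adjusted p = 0.0375) and Gnaq and Gnb2 did not (0.387 and 0.354). Of 41 genes of cAMP signalling 3 were higher and 0 lower (median 0.04): the anchoring protein genes Akap6 (0.26 ± 0.05) and Akap11 (0.22 ± 0.06) and the phosphodiesterase gene Pde4d (0.22 ± 0.05). There were 5 calls without morphine replicate 4 and 1 without morphine replicate 3 or saline replicate 6. With the length and GC offsets 0 of the 41 were called and Akap6 turned to -0.06. Creb1, the transcription factor gene downstream of cAMP, did not pass (0.09 ± 0.08, edgeR adjusted p = 0.543).

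Promoter windows of Oprm1 and Sst are shown because the cAMP response element (CRE, TGACGTCA) is the site at which CREB acts, and the genes changed in opposite directions. Sequences are RefSeq windows of GRCm38.p6 that run from 250 bases before to 50 after an annotated start, 5′ to 3′ on the gene's strand, with a CRE in capitals. Sst, which codes for somatostatin, holds 1 CRE that starts 48 bases before the start, and none of the 3 Oprm1 windows holds these letters.
Oprm1, chr10:6788320-6788619, plus strand: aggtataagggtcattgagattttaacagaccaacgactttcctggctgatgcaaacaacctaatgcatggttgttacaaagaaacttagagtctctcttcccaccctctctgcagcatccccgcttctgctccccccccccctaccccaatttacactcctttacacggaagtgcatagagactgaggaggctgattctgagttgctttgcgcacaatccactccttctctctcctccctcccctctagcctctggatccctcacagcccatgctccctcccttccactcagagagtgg
Sst, chr16:23890795-23891094, minus strand: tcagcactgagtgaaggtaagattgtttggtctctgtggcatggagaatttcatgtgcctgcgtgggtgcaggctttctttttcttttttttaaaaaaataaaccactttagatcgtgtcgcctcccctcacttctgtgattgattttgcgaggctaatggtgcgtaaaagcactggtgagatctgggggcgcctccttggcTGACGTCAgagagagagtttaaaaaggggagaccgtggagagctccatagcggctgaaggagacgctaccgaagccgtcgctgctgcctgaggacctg
Either strand was searched in the windows of 11189 tested genes that had one. A CRE lay in windows of 16 of 490 genes called higher (3.27%), 10 of 283 called lower (3.53%) and 393 of all 11189 (3.51%). The AP-1 letters TGACTCA lay in 3.47%, 3.89% and 4.36%, and the E-box CACGTG in 11.8%, 10.2% and 11.6% of the same sets. The GC box GGGCGG lay in 73.9% of the higher, 65.0% of the lower and 68.2% of all genes. None of these shares was tested, and a match describes the letters of the window alone.

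Some receptor genes of the excitatory and inhibitory synapse were called higher. Grin2b, the gene of the NMDA receptor subunit GluN2B, had 86.6, 117, 97.3, 105 and 86.6 CPM in morphine replicates 2 to 6, against a lowest, median and highest value of 35.4, 45.1 and 67.5 CPM in saline libraries. All 5 morphine libraries lay above every saline library, and the log2 fold change was 1.07 ± 0.14 (edgeR adjusted p = 0.00206). Grin2a, the gene of GluN2A, had 17.6, 25.02, 24.2, 24.1 and 18.5 CPM in morphine and 10.3, 12.6 and 15.0 CPM in saline libraries (0.78 ± 0.12, adjusted p = 0.00394). It too separated the groups, though with the length and GC offsets it no longer passed (adjusted p = 0.0569). Of 39 glutamate receptor and scaffold genes 4 were higher (10.3%, against 4.55% of all genes tested) and 1 lower (median 0.08). Without morphine replicates 2 or 6 or saline replicate 6, 3 were called. The other calls were the kainate receptor gene Grik3 (0.36 ± 0.07), the scaffold gene Shank2 (0.19 ± 0.05) and, lower, the striatal scaffold gene Dlgap3 (-0.34 ± 0.08). With the length and GC offsets Grin2b stayed called (edgeR adjusted p = 0.0189). Grik3, Shank2 and Dlgap3 did not (0.114, 0.596 and 0.133).

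Gabrb1, which codes for the beta-1 subunit of GABA-A receptors, had 27.6, 28.3, 26.4, 28.1 and 30.7 CPM in morphine libraries, against 16.9, 17.9 and 19.9 CPM as the lowest, median and highest saline value. The groups lay apart, with a log2 fold change of 0.63 ± 0.07 (edgeR adjusted p = 0.000452). The gamma-3 subunit gene Gabrg3 rose by 0.43 ± 0.12 (adjusted p = 0.0440), and these were the 2 of 21 GABA genes called higher, with 0 lower (median 0.19). Erbb4, the neuregulin receptor kinase gene that in the forebrain marks many GABAergic interneurons, had the smallest p of all genes. It had 41.4, 39.0, 35.2, 43.1 and 39.0 CPM in morphine libraries, against 19.7, 22.9 and 23.7 CPM in saline libraries. Every morphine library exceeded every saline library by a wide margin, and the log2 fold change was 0.81 ± 0.07 (adjusted p = 0.000100). Egfr, another receptor kinase gene of that family, rose by 0.39 ± 0.11 (adjusted p = 0.0435), and 2 of 12 neuregulin and ERBB genes were higher and 0 lower (median 0.05). Of 12 neurotrophin genes 2 were higher and 0 lower (median 0.04): Ntrk2, the BDNF receptor gene (0.22 ± 0.04), and Gfra1, a GDNF receptor gene (0.16 ± 0.05). Shares called higher were 9.52% of the GABA, 16.7% of the ERBB and 16.7% of the neurotrophin genes, against 4.55% of all genes tested. Each of these lists held 1 to 3 higher calls when 1 library was left out. With the length and GC offsets Gabrb1 and Erbb4 stayed called (edgeR adjusted p = 0.0274 and 0.00759). Gabrg3, Egfr, Ntrk2 and Gfra1 did not (0.437, 0.480, 0.762 and 0.280).

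**Figure D2:**
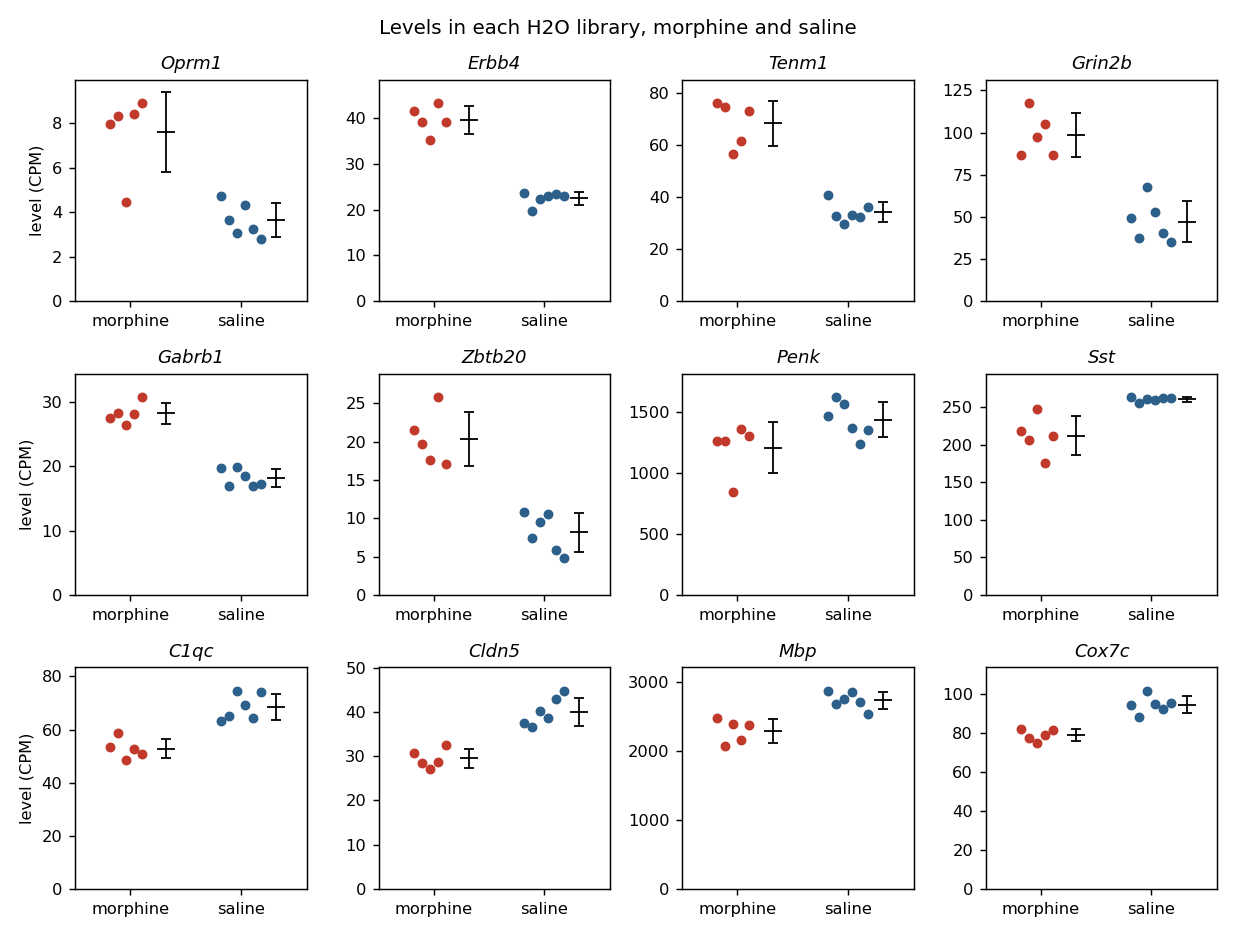
Level in CPM (y axis, from 0) of 12 genes in each H2O library, with 5 morphine libraries in red at the left and 6 saline libraries in blue at the right of each panel. The black mark is the mean with its SD. Erbb4, Tenm1, Grin2b, Gabrb1 and Zbtb20 lay above and Sst, C1qc, Cldn5, Mbp and Cox7c below the saline range in all 5 morphine libraries, and Oprm1 and Penk overlapped with it.

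Calls among ion channel genes were mostly higher, as were calls over all genes tested (4.55% higher, 2.42% lower). Of 33 sodium and calcium channel genes 5 were higher (15.2%) and 0 lower, with a median log2 fold change of 0.06. Without morphine replicate 4 there were 9 calls. With the length and GC offsets 0 were called and the median was -0.04. Cacna1e, an R-type calcium channel gene, had 291, 329, 320.0, 340.4 and 315 CPM in morphine and 199.6, 235 and 261 CPM in saline libraries (0.46 ± 0.07, edgeR adjusted p = 0.00429). Scn2a1, a main neuronal sodium channel gene, rose by 0.32 ± 0.07, Cacna1d by 0.27 ± 0.05 and Cacna1b by 0.25 ± 0.05. Of 76 potassium channel genes 4 were higher (5.26%) and 1 lower, close to the share of all genes (median 0.06). There were 9 calls without morphine replicate 4, 2 without morphine replicate 6 and 3 without morphine replicate 2 or saline replicates 3 or 6. Kcna3, the Kv1.3 gene, had 14.4, 14.2, 13.4, 13.8 and 11.3 CPM in morphine and 5.91, 7.15 and 11.6 CPM in saline libraries, and 4 of 5 morphine libraries exceeded all saline libraries (0.78 ± 0.16, adjusted p = 0.0132). Kcnk9, a TASK leak channel gene, rose by 0.77 ± 0.15 and Kcng3, a modifying subunit gene, by 0.79 ± 0.20. Kcnn3, a calcium-activated channel gene, rose by 0.31 ± 0.08, whereas Kcnh3 had -0.26 ± 0.06. With the length and GC offsets Kcna3 stayed called (edgeR adjusted p = 0.0254). Kcnk9, Kcng3, Kcnn3 and Kcnh3 did not (0.140, 0.0975, 0.471 and 0.0509).

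Synaptic adhesion genes and histone and DNA modifiers held the largest shares of higher calls among the lists of 8 or more tested members. Of 45 adhesion genes 11 were higher (24.4%) and 0 lower, with a median log2 fold change of 0.14. Tenm1, a teneurin gene for a transsynaptic adhesion protein, had 75.8, 74.3, 56.4, 61.5 and 72.8 CPM in morphine libraries, against 29.8, 33.01 and 40.6 CPM as the lowest, median and highest saline value. The groups did not overlap, and the log2 fold change was 0.99 ± 0.09 (edgeR adjusted p = 0.000179). Tenm4 rose by 0.48 ± 0.08, Slitrk4 by 0.48 ± 0.10, the latrophilin gene Lphn3 by 0.32 ± 0.07 and the neuroligin gene Nlgn3 by 0.24 ± 0.05. Of 53 histone and DNA modifier genes 14 were higher (26.4%) and 0 lower (median 0.11). Kmt2c, a methyltransferase gene for histone H3 lysine marks at enhancers, had 145, 139.6, 128, 150.3 and 144 CPM in morphine and 96.0, 103 and 117 CPM in saline libraries, with no overlap (0.44 ± 0.06, adjusted p = 0.00165). Tet1, whose enzyme oxidises methylcytosine, rose by 0.55 ± 0.10, the histone demethylase gene Kdm6b by 0.35 ± 0.06 and the acetyltransferase gene Ep300 by 0.25 ± 0.05. Transcripts of these lists were long: 18 of the 45 adhesion genes and 22 of the 53 modifiers lay in the longest 10% of all genes, as did 9 of the 11 and 12 of the 14 called. With the length and GC offsets 1 of each list was called higher (medians 0.05 and 0.01). Adhesion calls were 4 and 5 without morphine replicates 2 and 3, 7 without saline replicates 4 or 6, and 6 without saline replicates 8 or 9. Modifier calls were 9 without morphine replicates 3, 5 or 6 or saline replicates 8 or 9.

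Genes of energy metabolism and translation were called lower and none higher in the lists that follow. Of 76 oxidative phosphorylation genes 22 were lower (28.9%) and 0 higher, with a median log2 fold change of -0.13. Cox7c, a subunit gene of cytochrome oxidase, had 82.2, 77.3, 74.98, 79.0 and 81.7 CPM in morphine replicates 2 to 6, against 88.2, 94.7 and 102 CPM in saline libraries. The groups did not overlap (-0.26 ± 0.04, edgeR adjusted p = 0.00599). Uqcr11 of complex III (-0.25 ± 0.04), Ndufb7 (-0.24 ± 0.05) and Ndufa13 (-0.23 ± 0.05) of complex I and Atp5d of ATP synthase (-0.21 ± 0.04) fell as well. Of 79 cytosolic ribosomal protein genes 13 were lower (16.5%) and 0 higher (median -0.13), among them Rpl28 (-0.21 ± 0.04), Rps20 (-0.22 ± 0.04), Rpl38 (-0.18 ± 0.04), Rpl29 (-0.21 ± 0.05) and Rpl13 (-0.20 ± 0.05). Ribosomal protein genes have many near-identical pseudogenes, so their counts are uncertain. Of 74 mitochondrial ribosomal genes 1 was lower (Mrps9, -0.18 ± 0.05) and 0 higher (median -0.09), and none of 42 proteasome genes was called (median -0.05). Most of the transcripts were short: 47 of the 76 oxidative phosphorylation and 55 of the 79 ribosomal genes lay in the shortest 10%. With the length and GC offsets 2 and 1 were called lower and 0 higher, and the medians were -0.08 and -0.06. Oxidative phosphorylation calls were 9, 14 and 11 without morphine replicates 2, 5 and 6, and 14, 13 and 13 without saline replicates 3, 8 and 9. Ribosomal calls were 8, 7 and 4 without morphine replicates 4, 5 and 6, and 6, 4 and 7 without saline replicates 3, 4 and 8.

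Markers of microglia, vessels and myelin were also called in the lower direction. In bulk tissue, fewer cells of a type and less RNA per cell cannot be told apart. All 20 microglial markers had a log2 fold change below 0 (median -0.20), 8 were called lower (40%) and 0 higher. C1qc, a gene of the complement protein C1q that microglia make, had 53.3, 58.7, 48.7, 52.8 and 50.8 CPM in morphine libraries, against 63.2, 67.3 and 74.5 CPM as the lowest, median and highest saline value. No library of one group reached the other (-0.37 ± 0.06, edgeR adjusted p = 0.00463). C1qa (-0.27 ± 0.06), C1qb (-0.25 ± 0.06), the growth-factor receptor gene Csf1r (-0.19 ± 0.04) and the lipid receptor gene Trem2 (-0.30 ± 0.07) fell likewise. The summed level of the 20 markers was 818 to 920 CPM in morphine and 938 to 1010 CPM in saline libraries. With the length and GC offsets 3 were called lower (median -0.18). Without morphine replicates 2 and 5 there were 2 and 4 calls, and without saline replicates 3, 4 and 9 there were 4, 5 and 4.

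Of 20 endothelial markers 5 were lower (25%) and 0 higher (median -0.16), and their sum was 579 to 639 CPM in morphine and 645 to 737 CPM in saline libraries. Cldn5, the main tight-junction claudin gene of the blood-brain barrier, had 30.8, 28.4, 27.2, 28.7 and 32.6 CPM in morphine and 36.6, 39.4 and 44.7 CPM in saline libraries. The groups lay apart (-0.44 ± 0.07, edgeR adjusted p = 0.00376, 0.0519 with the length and GC offsets). The endoglin gene Eng (-0.38 ± 0.07), Esam (-0.36 ± 0.08), Emcn (-0.33 ± 0.08) and Ly6c1 (-0.28 ± 0.05) fell as well. Vtn, expressed by brain pericytes, was the 1 of 12 mural markers called lower (-0.38 ± 0.06, median -0.15), with 0 higher. Of 20 oligodendrocyte and myelin markers 4 were lower and 0 higher (median -0.17), and none had a log2 fold change above 0. There were 7 calls without morphine replicate 4, 2 without morphine replicates 2, 5 or 6 and 1 without saline replicate 3. Mbp, the myelin basic protein gene, had 2479, 2069, 2392, 2158 and 2384 CPM in morphine and 2546, 2734 and 2872 CPM in saline libraries, with no overlap (-0.25 ± 0.05, adjusted p = 0.0153). The others were the myelin glycoprotein gene Mag (-0.23 ± 0.05), the transferrin gene Trf (-0.20 ± 0.06) and Qdpr (-0.23 ± 0.05). None of 15 astrocyte markers was called (median 0.03), and 1 of 10 precursor markers was, Tnr, a perineuronal net gene (higher, 0.55 ± 0.08, median 0.02). With the length and GC offsets Mbp, Eng, Emcn and Vtn stayed called (edgeR adjusted p = 0.0223, 0.0300, 0.0494 and 0.0412). Esam, Ly6c1, Mag, Trf, Qdpr and Tnr did not (0.0856, 0.117, 0.174, 0.170, 0.187 and 0.0572).

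**Figure D3:**
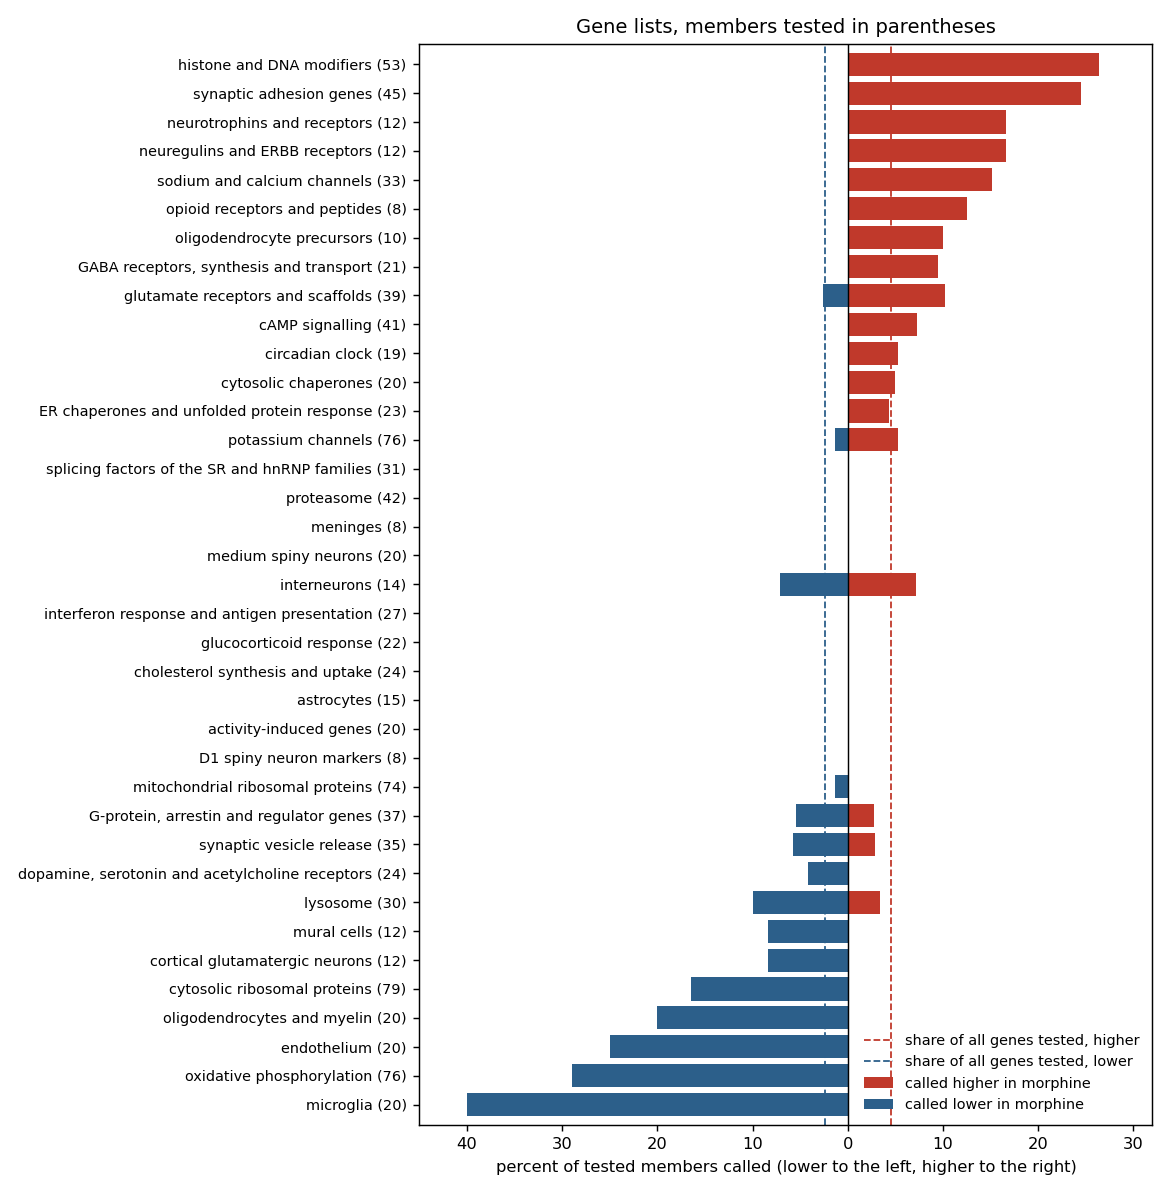
Share of each list's tested members called higher (red, to the right) or lower (blue, to the left) in morphine, in percent on the x axis, for lists with at least 8 tested members (number in parentheses). Dashed lines give the shares over all 14161 genes, 4.55% higher and 2.42% lower. Histone and DNA modifiers (26.4%) and adhesion genes (24.4%) reached farthest to the right, and microglial markers (40%) farthest to the left.

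Markers of the principal neurons were not called. None of 20 medium spiny neuron genes passed in either direction, though 19 had a log2 fold change below 0 (median -0.18), and none of 8 D1 (median -0.07) or 6 D2 markers (median -0.24). Drd1a had 178 to 297 CPM in morphine and 208 to 318 CPM in saline libraries (-0.11 ± 0.12, edgeR adjusted p = 0.659), and Drd2 107 to 174 CPM and 129 to 192 CPM (-0.22 ± 0.13, adjusted p = 0.333). Both ranges overlapped broadly. Of 14 interneuron markers 1 was higher and 1 lower (median -0.00190). Nos1, the neuronal nitric oxide synthase gene, had 58.2, 62.1, 52.9, 58.5 and 56.7 CPM in morphine and 36.2, 44.1 and 49.6 CPM in saline libraries, all morphine values being above (0.42 ± 0.08, adjusted p = 0.0107). Sst had 218, 206, 247, 175 and 212 CPM in morphine libraries, against 255, 261 and 263 CPM in saline libraries, which were nearly alike. All 5 morphine libraries were below them (-0.30 ± 0.07, adjusted p = 0.0209). In the striatum the same interneurons make both products. With the length and GC offsets neither was called: Nos1 had 0.24 (adjusted p = 0.130) and Sst -0.18 (0.243). Without morphine replicate 4 there were 4 interneuron calls. Of 24 dopamine, serotonin and acetylcholine receptor genes 0 were higher and 1 lower (median 0.14), the serotonin receptor gene Htr1d, with 10.8, 11.3, 11.5, 11.7 and 12.3 CPM in morphine and 14.4, 15.5 and 15.8 CPM in saline libraries (-0.40 ± 0.07, adjusted p = 0.00446, and 0.0146 with the length and GC offsets). Without morphine replicate 4 this list held 3 calls, and without morphine replicate 5 the spiny neuron genes held 2.

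No activity-induced gene passed: 0 of 20 were called, with a median log2 fold change of 0.25, and leaving out morphine replicate 4 or 6 gave 1 call. Fos had 28.0, 28.5, 46.1, 38.7 and 5.57 CPM in morphine libraries, against 8.69, 16.1 and 32.9 CPM in saline libraries. Morphine replicate 6 was the lowest of all 11 and replicates 4 and 5 were above every saline library (0.69 ± 0.40, edgeR adjusted p = 0.324). Fosb (0.20 ± 0.17) and Arc (0.48 ± 0.41) had adjusted p = 0.532 and 0.532. Bdnf was low, with 1.36, 1.94, 12.8, 0.903 and 0.581 CPM in morphine and 0.666 to 7.64 CPM in saline libraries, and its highest value lay in morphine replicate 4, the library with the highest Slc17a7. None of 22 glucocorticoid-response genes passed (median -0.05), and leaving out 1 library gave at most 1 call. Fkbp5, the co-chaperone gene induced by glucocorticoids, had 55.5 to 71.0 CPM in morphine and 59.1 to 67.6 CPM in saline libraries (-0.06 ± 0.07, adjusted p = 0.654), and Sgk1 had -0.21 ± 0.12 (adjusted p = 0.338).

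Other groups held few calls. Of 35 vesicle release genes 1 was higher, the active-zone gene Pclo (0.37 ± 0.08), and 2 were lower, the complexin gene Cplx2 (-0.20 ± 0.05) and Napa, which codes for alpha-SNAP (-0.24 ± 0.04), with a median of 0.04 and 6 calls without morphine replicate 4. Of 30 lysosomal genes the membrane protein gene Scarb2 was higher (0.23 ± 0.05) and 3 were lower, the hydrolase genes Ctsa (-0.16 ± 0.04), Hexa (-0.19 ± 0.05) and Ctsz (-0.26 ± 0.07), with a median of -0.04. Lysosomal calls were 1 without morphine replicates 2 or 5 or saline replicate 4, and 2 without morphine replicate 6 or saline replicate 3. Single calls were Hspa4l among 20 cytosolic chaperones (0.26 ± 0.07, median -0.02), the stress sensor gene Ern1 among 23 endoplasmic reticulum genes (0.45 ± 0.10, median -0.08), Ciart, a repressor gene of the clock, among 19 clock genes (0.32 ± 0.06, median 0.01) and Hist1h2bc, lower, among 7 tested of 67 clustered histone genes (-0.32 ± 0.09, median -0.23). With the length and GC offsets Napa and Ciart stayed called (edgeR adjusted p = 0.0332 and 0.0189). Pclo and Hspa4l did not (0.868 and 0.868), nor did Cplx2, Scarb2, Ctsa, Hexa, Ctsz, Ern1 and Hist1h2bc (0.0706 to 0.313). None of 31 splicing factor genes (median -0.00167), 24 cholesterol genes (median 0.04) or 27 interferon and antigen presentation genes (median -0.10) was called.

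Markers of neighbouring tissue differed between libraries. The 12 cortical markers summed to 194 to 1401 CPM in morphine and 229 to 904 CPM in saline libraries, and 1 of 12 was called, Lamp5 (lower, -0.46 ± 0.11). Without morphine replicate 4, 4 of the 12 were called lower, and the median log2 fold change of the list ranged from -1.86 to 0.25 over the fits that left out 1 library. All 7 septal markers had a log2 fold change above 0 (median 0.61), and the sum was 179 to 337 CPM in morphine and 179.6 to 297 CPM in saline libraries. Zic1, a transcription factor gene of the septum, had 31.9, 27.5, 26.1, 22.4 and 18.9 CPM in morphine and 12.2 to 19.9 CPM in saline libraries and was higher (0.63 ± 0.15, edgeR adjusted p = 0.0277), replicate 6 lying within the saline range. Irs4, a hypothalamic marker here, had 24.6, 11.8, 4.32, 2.56 and 9.72 CPM in morphine and 1.17 to 4.35 CPM in saline libraries (1.80 ± 0.51, adjusted p = 0.0493). It was 1 of 4 hypothalamic markers tested (median 0.88), and 3 of 5 morphine libraries exceeded all saline libraries. The part of neighbouring tissue in the calls was not tested beyond a fit with a cortical marker covariate, which called 1293 genes, 907 of them among the 987. None of 5 ependymal (median 0.45), 8 meningeal (median 0.12) or 1 pituitary marker tested was called. Alas2, an enzyme gene of haem synthesis in red cells and the 1 blood marker tested, was lower (-1.05 ± 0.28, adjusted p = 0.0406). The 6 haemoglobin genes of the list stood at 0 in all 11 libraries. Whether these values of 0 come from the tissue or from how the deposited reads were counted was not tested.

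The genes with the largest rises, among those with 2 CPM or more and no overlap, were led by Vwa5b1 (1.37 ± 0.27) and Zbtb20. Zbtb20, a transcription factor gene, had 21.6, 19.7, 17.7, 25.8 and 17.1 CPM in morphine and 4.86, 8.48 and 10.8 CPM in saline libraries (1.32 ± 0.19, edgeR adjusted p = 0.00245). Its lowest morphine library stood well above the highest saline library. Ankfn1 (1.10 ± 0.18), the kinase gene Nek10 (1.01 ± 0.16), the ciliary receptor gene Gpr161 (0.90 ± 0.15), Plcxd3 (0.87 ± 0.13), the nuclear receptor corepressor gene Lcor (0.86 ± 0.12), the deubiquitinase gene Usp51 (0.84 ± 0.20) and the aminopeptidase gene Lnpep (0.78 ± 0.09) were also among them. Vps13c, a lipid transfer gene (0.57 ± 0.05), Tmem178b (0.71 ± 0.07) and the ubiquitin ligase adaptor gene Klhl11 (0.62 ± 0.07) were among the 6 rises with the smallest p.

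The largest falls were smaller than the largest rises among genes with 2 CPM or more and no overlap. By this rule Casq2, a calcium-storage gene (-0.57 ± 0.15), Fgd2, an exchange factor gene for Cdc42 (-0.56 ± 0.13), and Eepd1 (-0.55 ± 0.10) had the largest. Eepd1 had 14.8, 19.7, 23.6, 20.9 and 18.9 CPM in morphine and 25.4, 29.3 and 32.2 CPM in saline libraries, with no overlap (edgeR adjusted p = 0.00881). Bfsp2 (-0.53 ± 0.12), the kinase gene Wnk4 (-0.49 ± 0.12), the glycosyltransferase gene Gcnt1 (-0.49 ± 0.13), Asb11 (-0.45 ± 0.11), Ubtd1 (-0.43 ± 0.07), the semaphorin receptor gene Plxnd1 (-0.43 ± 0.11) and Them6 (-0.41 ± 0.08) followed. A pair of inhibitors of protein phosphatase 1 fell, Ppp1r1a (-0.44 ± 0.07) and Ppp1r14a (-0.42 ± 0.09). The smallest p among falls belonged to Sepw1, a selenoprotein gene, with 388, 407, 393, 391 and 381 CPM in morphine and 463, 478 and 497 CPM in saline libraries (-0.29 ± 0.04, adjusted p = 0.00170). Rtkn (-0.32 ± 0.05), the mitochondrial gene Chchd10 (-0.25 ± 0.04) and the phosphatase gene Ctdnep1 (-0.25 ± 0.04) came next.

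Fold changes followed transcript length. Across 14037 genes with a length, Spearman's rho with the log2 fold change was 0.45 for transcript length, 0.34 for gene span and -0.31 for GC content, which are descriptions across genes that are not independent. Genes called higher had a median transcript of 7840 bases, those called lower 1810 bases, and all tested genes 3477 bases. In the longest 10% (6934 bases or more, 1404 genes) the median log2 fold change was 0.18, with 28.3% called higher and 0.142% lower. In the shortest 10% it was -0.10, with 0.214% called higher and 8.20% lower. The median deviation of the longest 10% from the mean of the 11 libraries was 0.0850 to 0.114 log2 CPM in morphine and -0.136 to -0.00407 in saline libraries, so every morphine library lay above every saline library. No measure of RNA integrity was used here, and the part of RNA or library quality in this relation was not tested.

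**Figure D4:**
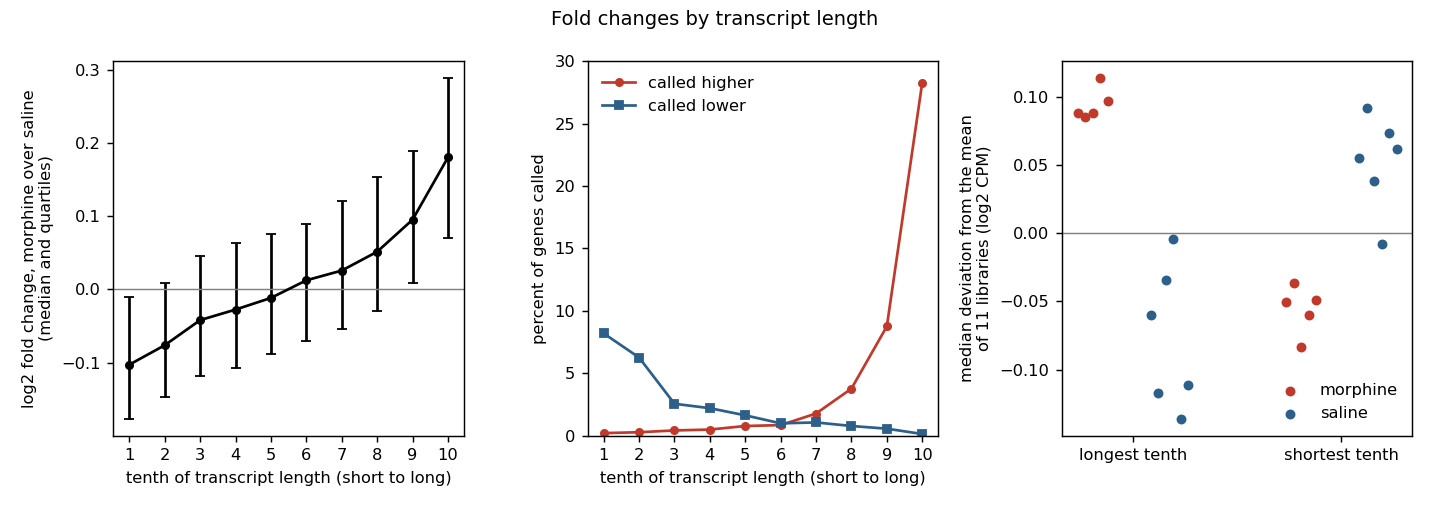
The left panel gives the median log2 fold change of morphine over saline with its quartiles, and the middle panel the percent of genes called higher (red) or lower (blue), by bins of 10% of the genes in order of transcript length from short to long on the x axis. The right panel gives, for each morphine (red) and saline (blue) library, the median deviation of the longest and the shortest 10% from the mean of the 11 libraries in log2 CPM. Medians ran from -0.10 in the shortest to 0.18 in the longest 10%.

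Some calls stayed with the offsets, many of them smaller. The offsets use the length of the longest annotated transcript, which may differ from the transcript present in the tissue. By that length Oprm1 (2420 bases) and Klhl11 (2393 bases) lay outside the longest 10%. Klhl11 had 0.62 without and 0.64 with the offsets (edgeR adjusted p = 0.00204 with them). Grin2b, Erbb4, Gabrb1 and Tenm1 lay within the longest 10% (24060, 12037, 13737 and 12879 bases) and had lower values with the offsets. With and without them, Erbb4 had 0.53 and 0.81, Tenm1 0.70 and 0.99, Grin2b 0.72 and 1.07, and Gabrb1 0.33 and 0.63 (adjusted p with the offsets 0.00759, 0.00979, 0.0189 and 0.0274). These stayed called, as did 11 of the 14 largest rises. Among the 14 largest falls, Eepd1 and Gcnt1 alone stayed called (edgeR adjusted p = 0.0375 and 0.0452). Sepw1, the fall with the smallest p, did not (0.114). Of the 118 called genes that the naming rule chose, 20 of 60 higher and 15 of 58 lower ones stayed called with their direction.

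Responses under the other microbiome states came from other mice. In Abx mice, 560 of the 644 genes called higher in H2O mice had a log2 fold change above 0 (87.0%, against 49.0% of all tested genes), with a median of 0.17, and 216 of them were called higher there. Of the 343 called lower in H2O mice, 311 were below 0 in Abx mice (90.7%, against 51.0%), with a median of -0.13. The same dependence on length was present, the longest 10% having a median of 0.11 and the shortest -0.10 in Abx mice. In GF mice 1 library decided the direction. GF morphine replicate 5 had 35.4% of tallied reads given to no gene and 19.8% with several alignments, against 19.3% to 30.1% and 9.03% to 12.5% in the other 10 GF libraries. With it, 102 of the 644 were above 0 in GF mice (15.8%, against 46.7% of all tested genes), with a median of -0.09, and the longest 10% had a median of -0.10. Without it, a setting chosen after seeing the data, 323 were above 0 (50.2%, against 47.9%), and the longest 10% had a median of -0.01. Of all genes, 1 was called within GF mice in the 22-library fit, Flt3l, the gene of a haematopoietic growth factor (0.92 ± 0.15, edgeR adjusted p = 0.0496), named after its value was seen. It lost its call without GF morphine replicate 5 (adjusted p = 0.0957). Oprm1 had 4.79, 5.12, 6.26, 5.83 and 5.63 CPM in Abx morphine and 1.62 to 7.48 CPM in Abx saline libraries, and its response was 0.38 ± 0.24 in Abx and -0.07 ± 0.25 in GF mice. These did not pass the test of a difference from H2O mice (edgeR adjusted p = 0.421 and 0.224). Erbb4 had a response of 0.59 ± 0.11 in Abx and -0.12 ± 0.18 in GF mice, again with no difference passing the test (0.582 and 0.189). Its GF morphine libraries had 40.6, 47.3, 41.2, 13.6 and 46.7 CPM and its GF saline libraries 37.3 to 46.2 CPM, so that replicate 5 alone lay below the saline range. Without GF morphine replicate 5 the response of Erbb4 in GF mice was 0.10 ± 0.08, and its difference from H2O mice passed (adjusted p = 0.0169), while Oprm1 had 0.14 ± 0.22 (0.328).

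The difference of responses, Abx minus H2O, passed for 59 of 14564 genes (0.405%), 26 higher and 33 lower. It was 26 genes without H2O morphine replicate 2, 33 to 38 without H2O saline replicates 3, 5 or 6, Abx morphine replicates 1 or 3 or Abx saline replicate 1, and 88 without Abx morphine replicate 5. Responses of H2O mice in this paragraph come from the same 22-library fit as those beside them. Wnt10b, a Wnt ligand gene, had 6.69, 4.42, 6.74, 6.14 and 4.33 CPM in Abx morphine and 0.850 to 1.40 CPM in Abx saline libraries, against 0.914 to 1.505 CPM in H2O morphine and 0.791 to 1.67 CPM in H2O saline libraries. It separated the Abx groups and not the H2O groups (difference 2.47 ± 0.30, edgeR adjusted p = 0.000354). Cdkn1a, the p21 cell-cycle inhibitor gene, had 53.2, 38.8, 63.3, 45.1 and 33.9 CPM in Abx morphine and 23.3 to 29.6 CPM in Abx saline libraries, against 14.4 to 22.7 CPM in H2O morphine and 18.7 to 26.2 CPM in H2O saline libraries (1.26 ± 0.19, adjusted p = 0.00603). Its response was 0.91 ± 0.13 in Abx mice and -0.35 ± 0.14 in H2O mice. Fkbp5 had a response of 0.72 ± 0.10 in Abx and -0.06 ± 0.11 in H2O mice (difference 0.79 ± 0.15, adjusted p = 0.0208). Fabp7, the brain fatty-acid binding protein gene, had -1.01 ± 0.12 in Abx and 0.14 ± 0.11 in H2O mice (difference -1.15 ± 0.16, adjusted p = 0.00264). Plxna3, a semaphorin receptor gene called higher in H2O mice, had -0.24 ± 0.09 in Abx and 0.48 ± 0.09 in H2O mice (difference -0.71 ± 0.12, adjusted p = 0.0133). For GF minus H2O, 0 of 14274 genes passed in edgeR, with 1903 at an unadjusted p under 0.05, while DESeq2 called 76 and limma voom 3, and 5 passed in edgeR without GF morphine replicate 5. The GF genes with the smallest p included Lnpep, which had -0.45 ± 0.17 in GF and 0.78 ± 0.17 in H2O mice, and Fndc3a, which had -0.13 ± 0.08 in GF and 0.36 ± 0.08 in H2O mice (adjusted p = 0.175 and 0.175). Without GF morphine replicate 5 they had -0.27 ± 0.13 and -0.07 ± 0.07 in GF mice, and the difference passed for Lnpep (0.0348) and not for Fndc3a (0.161).

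**Figure D5:**
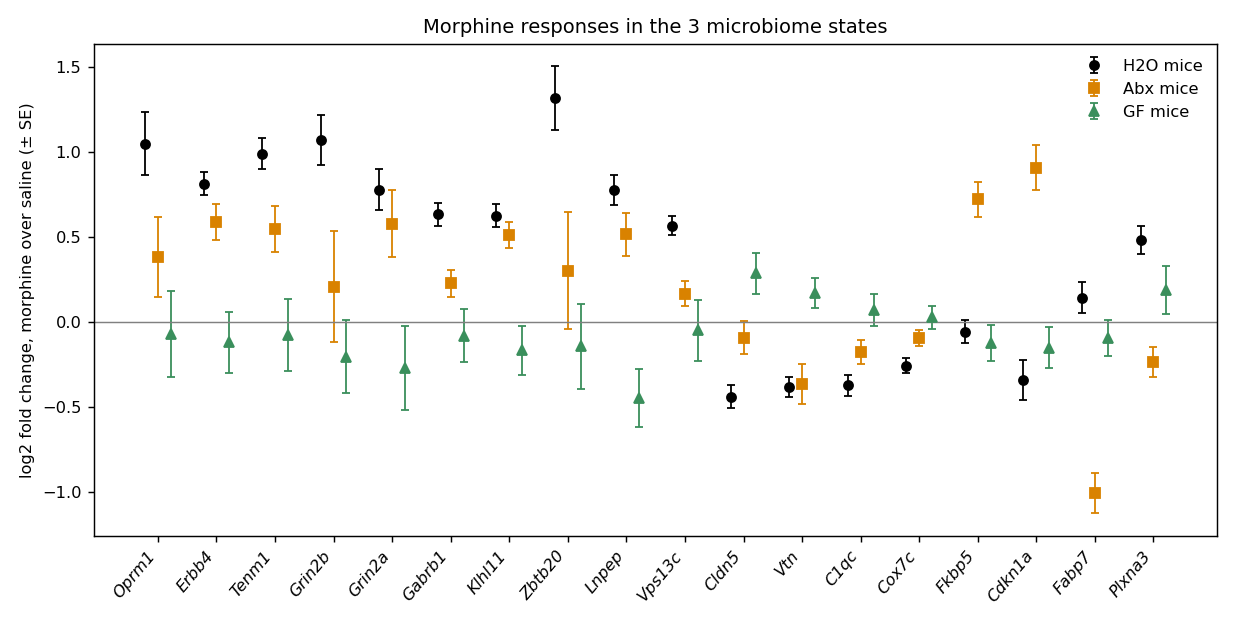
Log2 fold change of morphine over saline (y axis, ± SE) of 18 genes in H2O (black circles), Abx (orange squares) and GF mice (green triangles), from the 11-library fit for H2O and the 22-library fits for the others. Wider gaps between H2O and Abx are seen for Fkbp5, Cdkn1a, Fabp7 and Plxna3, whose difference passed the test, and no difference between GF and H2O mice passed it with GF morphine replicate 5 in the fit, as drawn.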

How the data were processed

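RNA of the nucleus accumbens was sequenced in 33 libraries, of which the 11 H2O libraries gave the main comparison. The whole-number counts per gene symbol were made and deposited by the authors, who used FastQC, STAR 2.4.0 and edgeR per the submitters' processing notes. Not given in the sources used here are the build, the annotation, the counting program and the strandedness, so reads of overlapping genes cannot be told apart. A deposited normalised table was not used. The 5 tally entries were left out of library sizes and tests and held 21.0% to 22.4% of tallied reads in morphine and 21.1% to 22.7% in saline libraries. In 27 entries a date stands in place of the gene symbol, and these were tested and not named.

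Genes were kept by filterByExpr (minimum count 10), scaled by TMM and tested two-sided in R 4.3.3 with edgeR 4.0.16 (glmQLFit, glmQLFTest), with Benjamini-Hochberg adjustment over all genes tested and a threshold of 0.05. The 9 residual degrees of freedom came with a biological coefficient of variation of 0.106. The SE of a log2 fold change is its size divided by the square root of F, and levels are CPM, counts scaled to the TMM library size. Responses were compared as interactions in fits of 22 libraries. The code was tested on simulated data. Replicates correlated with r from 0.978 to 0.993 over 25 pairs (log2 CPM across genes), and all pairs differed by more than sampling noise (chi-squared over its degrees of freedom 3.07 to 20.0). The labels do not state that replicates were separate cages, so p-values measure the spread between these mice only.

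Members and the 44 gene lists were chosen with earlier results of these data known. Genes are named by a rule: the 14 largest changes in each direction with 2 CPM or more and no overlap, the 6 smallest p in each direction, up to 5 called members of each list, a few opioid, dopamine, stress and activity genes, and the leading interaction genes. Gene models, pseudogenes, ribosomal and mitochondrial genes were left out of the first rules, and a few genes that the rule chose are not reported here. Alternatives were DESeq2 1.42.0, limma 3.58.1 voom with quality weights, RLE and upper-quartile factors, other filters, a fit of 33 libraries, a replicate block, length and GC offsets (mgcv 1.9.3), a surrogate variable (sva 3.50.0), a cortical marker covariate and leaving out each library. Transcript lengths and GC content, taken from the longest annotated transcript of a gene, and gene spans came from GENCODE, with a length for 23653 of 24061 genes. Promoter windows came from RefSeq, and 23875 genes were matched to RefSeq by symbol or synonym. Library totals of 9.49 to 15.33 M counts set the precision at low levels.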

Additional observations from a re-analysis of the deposited data

Results flagged for a closer look

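A check of single libraries against the rest of their group covered 280 groups of values and marked 18 of them, and chance marks about 1 in 20 such groups. Of these, 8 lay in H2O morphine replicate 4. It was low for 3 opioid genes: Oprm1 stood at 4.45 CPM (the other 4 at 7.97 to 8.89 CPM), Penk at 843 CPM (1263 to 1364 CPM) and Pdyn at 229.5 CPM (393 to 445 CPM). The same library was high for Bdnf at 12.8 CPM (0.581 to 1.94 CPM) and for Grik3 at 239 CPM, and low for Ep300 at 103 CPM, Fndc3a at 74.2 CPM and Rpl13 at 201.5 CPM. It also held the highest level of the cortical marker Slc17a7 among the H2O libraries, and the part of that in these values was not tested. H2O morphine replicate 2 was low for Ctdnep1 at 74.8 CPM and Plxnd1 at 90.9 CPM.

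Among H2O saline libraries, replicate 4 was low for Erbb4 at 19.7 CPM and high for Rpl13 at 280.2 CPM, replicate 5 was high for Kcng3 at 3.71 CPM and Ppp1r1a at 153 CPM, replicate 8 was high for Ndufa13 at 167 CPM, and replicate 9 was high for Eng at 46.5 CPM and low for Rtkn at 72.7 CPM. The share of reads with several alignments was 11.9% in H2O saline replicate 5, above the 10.4% to 10.8% of the other 5.

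The morphine response differed between Abx and H2O mice, by the interaction test, for 9 named genes. All but Fkbp5 were named because they led that test, which 59 of 14564 genes passed. The difference, Abx minus H2O on the log2 scale, was 2.47 for Wnt10b, 1.29 for Pcolce2, 1.26 for Cdkn1a, 0.79 for Fkbp5 and 0.41 for Dbndd2. It was -1.15 for Fabp7, -0.72 for Stxbp4, -0.71 for Plxna3 and -0.57 for Pycrl.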

How the results depend on the processing

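With the 987 genes called in H2O mice as the base, 973 to 1404 were called with DESeq2, limma voom, RLE or upper-quartile factors, a CPM filter or a cortical marker covariate, and 758 without a low-count filter. The fit of all 33 libraries called 0, a surrogate variable 1654, and length and GC offsets 134 (50 higher, 84 lower, against 644 and 343). Over the numbers shared by both groups 69 genes were called, and 2 with a replicate block, a fit on fewer libraries. The labels do not state that a shared number pairs mice. The r of deviations from the group mean was 0.0676, -0.522, 0.378 and -0.130 for numbers 3, 4, 5 and 6. Such values across genes cannot decide whether the mice were paired. Leaving out 1 library gave 460 to 1200. Of the 118 calls chosen by the naming rule, 103 to 118 stayed called with the changes of tool, scaling, filter and covariate and with the surrogate variable, and 35 with the offsets. All 987 calls kept their sign in every one of these fits that tested them, except with the offsets (939 of 984). These fits use the same H2O libraries or most of them, so a kept sign is not a separate test. Named genes changed sign as follows. Akap6 was -0.0589 and Creb1 -0.11 with the offsets. Bdnf, near 0, was -0.0786 with DESeq2, -0.99 with voom, -0.00444 with RLE and -0.0145 with upper-quartile factors, -0.00690 in 33 libraries, -0.00180 with the CPM filter, -0.16 with the block, -0.10 with the offsets, -0.39 with the surrogate variable and -1.62 to 0.35 without 1 library. Oprk1 was 0.00550 with voom and -0.0835 to 0.0331 without 1 library. Pdyn was 0.0300 with voom, 0.00384 with the offsets and -0.10 to 0.10 without 1 library. Pycrl was 0.0701 with the offsets and -0.0706 to 0.00959 without 1 library, and Oprd1 -0.00683 to 0.15. For the Abx interaction (59), DESeq2 called 185, voom 109, the fit of 33 libraries 16, a replicate block 6, and fits without 1 library 26 (H2O morphine replicate 2) to 88 (Abx morphine replicate 5). For the GF interaction (0), DESeq2 called 76, voom 3, and fits without 1 library 0 to 5 (GF morphine replicate 5). Of the 644 genes higher in H2O mice, 15.8% were above 0 within GF mice, and 50.2% without GF morphine replicate 5, a setting added after seeing the data. Where a value moved, the cause was not tested, apart from fewer libraries in the fit. Read depth (9.49 to 15.33 M) limits genes near 1 CPM, such as Bdnf and Wnt10b.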
